A study of Mus musculus with 6 samples.

Results

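Skeletal muscle genes were followed in the aorta of age-matched mice that were either wild type or deficient in eNOS, the endothelial nitric oxide synthase that Nos3 encodes and from which the vessel lining gets its nitric oxide. The set of 45 genes was given by name and was chosen with earlier results of these data known. It covers fast and slow fibre isoforms, structural proteins, calcium handling and energy metabolism. Each gene was read from its brightest probe set, a group of short probes on the array whose annotation names only that gene. All 45 were found among 22184 genes with such a probe set, and all 45 were bright enough to stay among the 18008 genes tested. The filter on dim genes stood at 4.38 log2, and the dimmest of the 45 were Myh8 and Mrln, with means of 5.81 and 6.05 over the 6 arrays.

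Total RNA came from 3 eNOS-deficient samples, numbered 11, 15 and 19 in their titles, and from 3 wild-type samples, numbered 2, 3 and 5, with 1 Affymetrix array per sample. All 6 samples were labelled as aorta, and no treatment is named for either group. The labels used here do not give strain, sex, age, the targeted allele or whether a sample is 1 animal or a pool, and any p-value below therefore reflects only how far these 6 samples spread, which may be technical. Values below are log2 signals and are always given in the order 11, 15 and 19 for eNOS-deficient aorta and 2, 3 and 5 for wild type. Nos3, the targeted gene, stood at 7.13, 7.39 and 7.27 in eNOS-deficient aorta and at 7.99, 7.88 and 7.36 in wild type (difference -0.48, standard error 0.188, limma adjusted p = 0.399). Wild type 5 lay inside the eNOS-deficient range, and where the probes lie relative to the deleted part is not known, so Nos3 did not check the label of any single array.

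Skeletal muscle contracts when calcium released from the sarcoplasmic reticulum binds troponin on the thin filament and lets myosin pull on actin. Fast fibres carry their own isoforms of myosin, troponin and the calcium pump and draw mainly on glycogen. Slow fibres carry a second set of isoforms, several of which the heart uses too. The aortic wall itself is built from smooth muscle, whose contractile genes are largely distinct.

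The arrays carried the markers of an aorta with its surrounding tissue, and they differed in other cell types as well. Array medians ran from 5.55 to 5.68, correlations between arrays over probe sets from 0.947 to 0.983, and at most 0.109% of values were identical between any pair. Acta2, the smooth muscle actin, stood between 12.30 and 12.80 on all 6 arrays, and Cdh5, the endothelial cadherin, between 9.75 and 11.02. Ucp1, the uncoupling protein of brown fat, stood between 12.91 and 13.12. Of 25 squamous epithelium genes, 24 were measured, and their mean was 5.36, 5.26 and 5.28 on the eNOS-deficient arrays and 6.02, 5.46 and 8.12 on the wild-type arrays. The mean of 4 Y-linked genes was 6.62, 4.24 and 6.91 against 3.52, 3.48 and 3.34, and Xist, the RNA of the inactive X chromosome, stood at 5.65, 11.88 and 8.29 against 12.09, 12.08 and 12.09. Wild type 5 thus stood apart in epithelium genes. The Y-linked genes and Xist split the eNOS-deficient arrays: eNOS-deficient 11 was the only array low in Xist, eNOS-deficient 15 was close to wild type in Xist, and 15 and 19 carried Xist together with Y-linked signal above every wild-type array, so the labels and these values do not settle whether those samples are single animals. Of 20 lymphocyte genes, a list added after values of some of them were seen, 17 were measured, and their mean was 6.05, 8.37 and 8.85 on the eNOS-deficient arrays and 7.98 to 8.40 on the 3 wild-type arrays. All 17 were lowest on eNOS-deficient 11, as were 2774 of all 18008 genes tested. Among the 17 were the T cell genes Cd3g (6.13, and 8.39 to 9.83 elsewhere) and Il7r (5.65, and 7.88 to 9.42). The B cell genes Ms4a1 (5.24, and 7.95 to 8.65) and Cr2 (4.19, and 7.45 to 8.22) were among them too. The part of these differences in the muscle results was not tested.

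The skeletal muscle genes differed widely between arrays of the same genotype. The mean of the 45 genes was 10.25, 8.81 and 8.79 on the eNOS-deficient arrays and 8.59, 8.06 and 9.82 on the wild-type arrays. One array of each genotype, eNOS-deficient 11 and wild type 5, therefore lay above the other 4, and wild type 3 lay lowest. The first of these was also the array lowest in lymphocyte genes and in Xist, and the second the one highest in epithelium genes. These arrays were the 2 highest of the 6 for 42 of the 45 genes (7.52% of all genes tested), with eNOS-deficient 11 above wild type 5 in 39 (4.27% of all genes). eNOS-deficient 11 was the highest array for 41 genes (20.5% of all genes), wild type 5 for the other 4 (15.8%), and wild type 3 the lowest for 35 (11.9%). Because the set was chosen with earlier results of these data known, these counts and the spans below describe it and do not test it against all genes. In bulk tissue, more muscle cells and more RNA of these genes per cell cannot be told apart.

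The span from the lowest to the highest array was at least 1 log2 for all 45 genes (14.3% of all genes tested) and at least 2 log2 for 31 (2.67%). Its median was 2.27 log2 over the 45 genes and 0.56 over all genes. Myh8, the perinatal myosin heavy chain, had the widest span (6.17, in 1 of its 2 probe sets). Myh7, the slow myosin heavy chain, had the narrowest (1.05). Across the 44 genes other than Myh8, the span had a Spearman correlation of 0.091 with the gene's mean signal, a description over genes that share the same 6 arrays. Wide spans thus occurred among bright and dim probe sets alike.

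**Figure D1:**
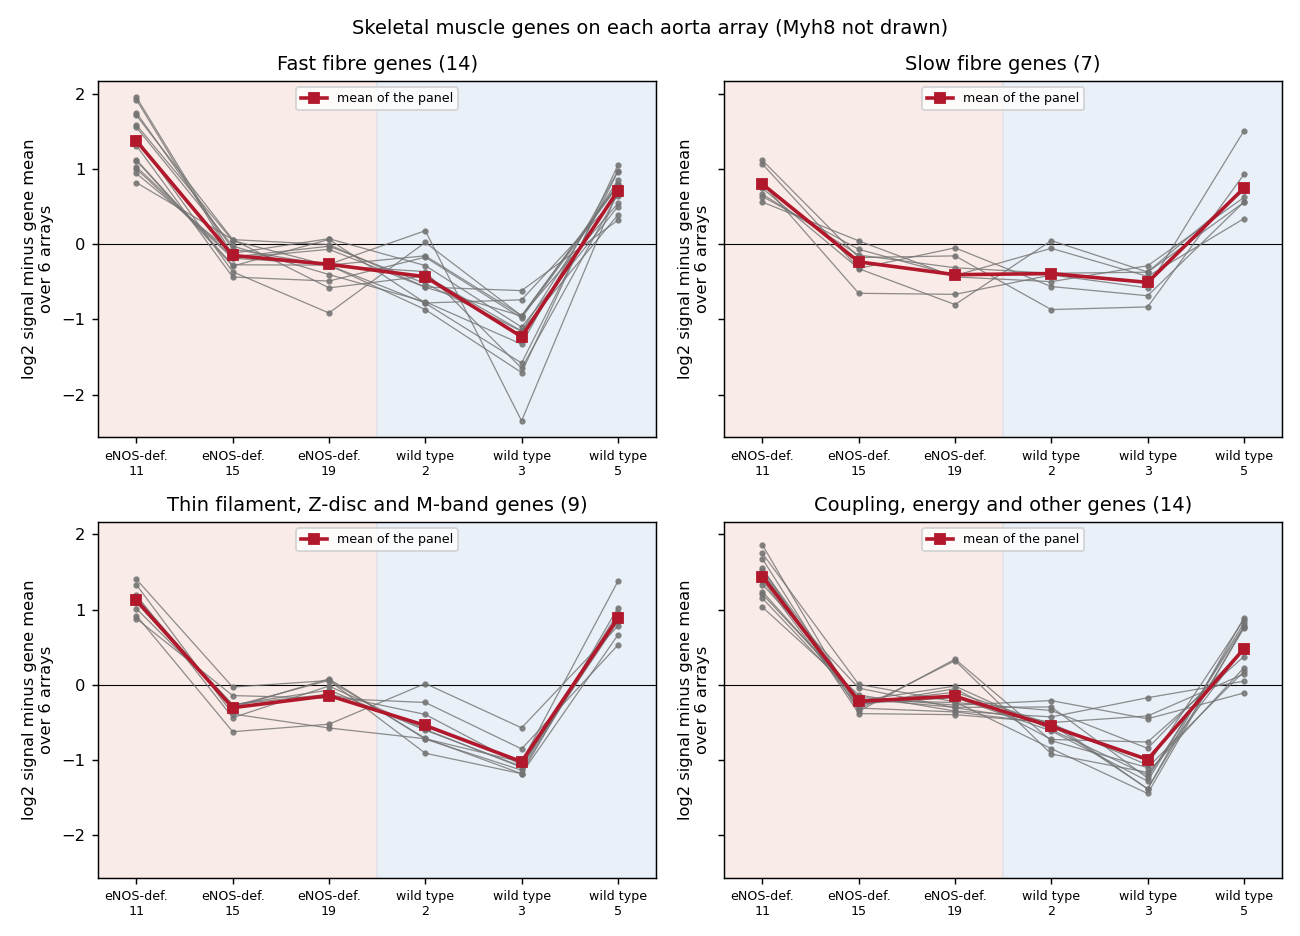
Each grey line is 1 skeletal muscle gene, drawn as its log2 signal minus its own mean over the 6 arrays, and red squares are the mean of the panel; lines only join the points of a gene. eNOS-deficient 11 and wild type 5 stand above the other arrays in all 4 panels, and the fast fibre genes reach a mean deviation of 1.37 on eNOS-deficient 11 and -1.23 on wild type 3.

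Between the genotypes, none of the 45 genes passed the test over all genes (limma with Benjamini-Hochberg adjustment, where 0.0278% of all genes, 5 of 18008, passed). At an unadjusted p under 0.05 there was 1 of 45, Myh8, against 11.6% of all genes. The probe set used for Myh8 was its brightest only through the wild-type arrays, and its second probe set gave a difference of -0.06. For 41 of the 45 the difference, eNOS-deficient minus wild type, was above 0 (56.6% of all genes), and for 26 it was at least 0.5 log2 (4.1% of all genes). The median difference was 0.52 log2 over the 45 genes and 0.04 over all genes tested. Their standard errors had a median of 0.557 log2, against 0.156 over all genes. The list mean was 9.29 ± 0.84 (SD, n = 3) with eNOS deficiency and 8.82 ± 0.90 in the wild type, so the difference of 0.46 was smaller than the SD of either group.

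The groups of arrays overlapped for 44 of the 45 genes, and Myh8 was the 1 without overlap (19.5% of all genes had none). In the second probe set of Myh8 the groups did overlap. The 5 genes with the smallest unadjusted p were Myh8, Lrrc30, Asb15, Myl1 and Tmod4, and their limma adjusted p ran from 0.421 to 0.548. Lrrc30, a leucine-rich repeat gene, stood at 8.72, 6.53 and 7.18 (eNOS-deficient) and 5.94, 5.69 and 7.09 (wild type), with a difference of 1.24 (standard error 0.584). Asb15, of a family of ankyrin repeat proteins with a SOCS box, stood at 9.25, 7.22 and 7.92 (eNOS-deficient) and 6.83, 6.48 and 7.75 (wild type), with a difference of 1.11. In both, eNOS-deficient 11 and 19 lay above all 3 wild-type arrays, and the groups overlapped because wild type 5 lay above eNOS-deficient 15.

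Single arrays set the size of these differences. Without wild type 5 the median of the 45 genes was 1.03 log2, 44 differences were above 0 (50.2% of all genes) and 17 genes lay higher at an unadjusted p under 0.05 (8.93% of all genes), while none passed the adjusted test (0.0111% of all genes; smallest limma adjusted p among the 45 = 0.214). Without eNOS-deficient 11 the median was 0.09, 31 differences were above 0 (57.5% of all genes), and none had an unadjusted p under 0.05 (9.36% of all genes). Without wild type 3 it was 0.17.

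With eNOS-deficient 11 and wild type 5 both left out, a choice made after seeing the data, eNOS-deficient 15 and 19 were set against wild type 2 and 3. The median of the 45 genes was then 0.62 log2, against 0.01 over all genes, and 39 differences were above 0 (51.2% of all genes). None passed limma's adjusted test (0.0111% of all genes), and at an unadjusted p under 0.05 there were 24 higher (9.47% of all genes) and 1 lower, Myh8. The arrays left out were those highest in these same genes, and the genes move together over the 4 arrays that remain, so these values describe the 4 arrays and their counts are not independent observations. Tmod4, a tropomodulin of skeletal muscle that caps thin filaments, stood on all 6 arrays at 10.52, 9.09 and 9.18 (eNOS-deficient) and 8.21, 7.94 and 9.78 (wild type), a difference of 0.95 (standard error 0.556). The Y-linked genes and the squamous epithelium genes also differ between these 4 arrays, and their part in the result was not tested.

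**Figure D2:**
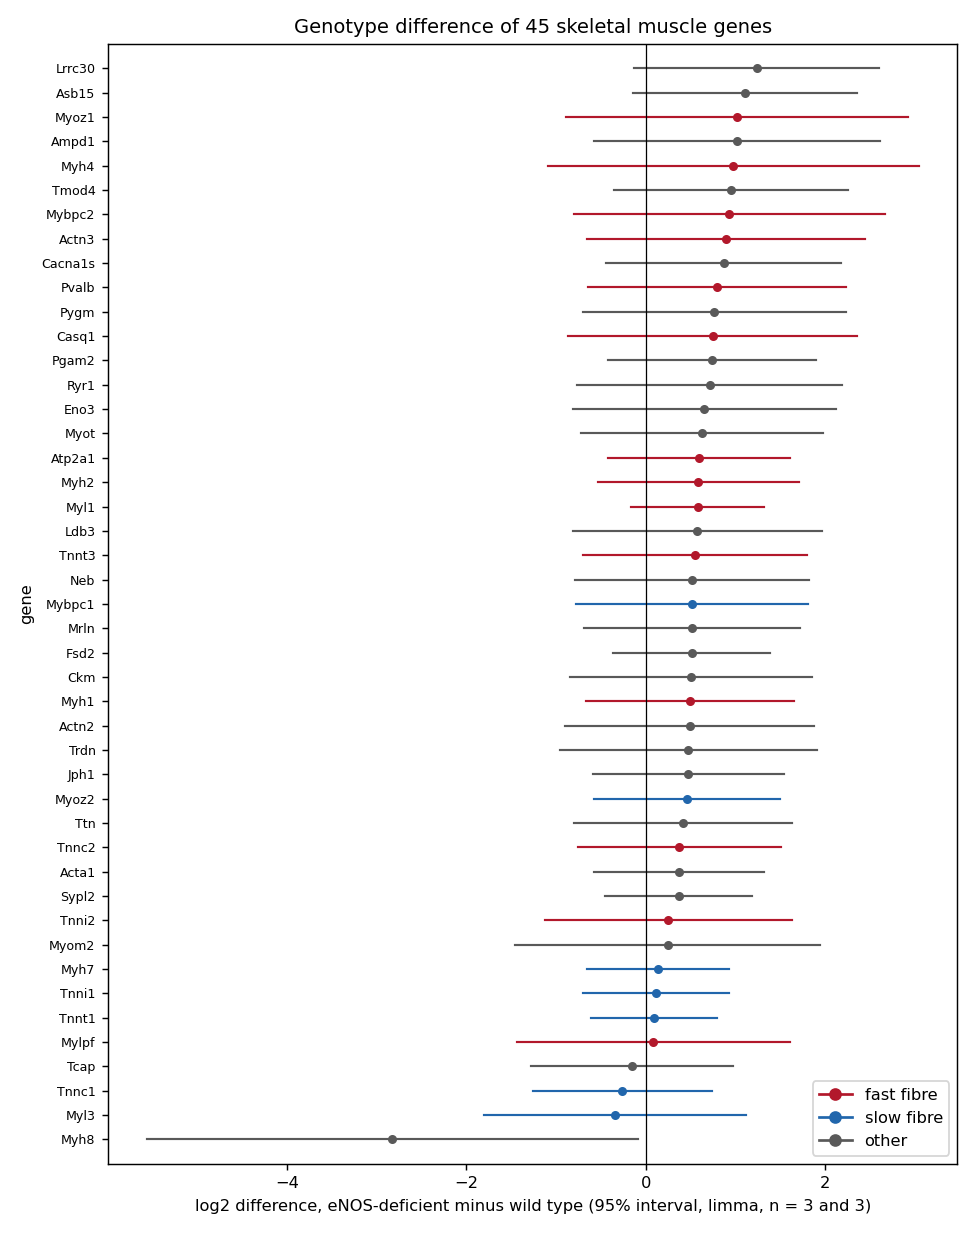
Points are the log2 difference, eNOS-deficient minus wild type, of each of the 45 genes, with the 95% interval from limma (3 arrays a group). Fast fibre genes are red, slow fibre genes blue and others grey; 41 points lie above 0, and only the interval of Myh8 leaves out 0.

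The 14 fast fibre genes all had a difference above 0, with a median of 0.59 log2, and none had an unadjusted p under 0.05 in limma. Without eNOS-deficient 11 that median was 0.18, without wild type 3 it was 0.23, and without wild type 5 it was 1.09. All 14 were highest on eNOS-deficient 11, and 13 were lowest on wild type 3. The fast myosin heavy chains are the motors of type 2 fibres. Myh4, of the fastest type 2B fibres, stood at 11.72, 9.62 and 9.53 (eNOS-deficient) and 9.98, 7.46 and 10.51 (wild type) and spanned 4.27 log2, a 19.3-fold range. Myh1, of type 2X fibres, stood at 11.92, 10.73 and 10.85 (eNOS-deficient) and 10.34, 9.96 and 11.70 (wild type), and Myh2, of type 2A fibres, ran from 9.56 to 11.45. The span of Myh4 was wider than those of Myh1 (1.95) and Myh2 (1.89). These genes lie side by side on chromosome 11 and have similar sequences, and whether their probes read each other's transcripts was not tested.

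Of the myosin light chains, Myl1 had the narrowest span of the fast genes (1.43 log2). Myl1, the fast alkali light chain, stood at 11.36, 10.61 and 10.54 (eNOS-deficient) and 9.98, 9.93 and 10.86 (wild type), with a difference of 0.58 (standard error 0.316, limma adjusted p = 0.518). Mylpf, the fast regulatory light chain, ran from 7.18 to 9.55 with a difference of 0.09 (standard error 0.65), and without eNOS-deficient 11 its difference was -0.60. Myl1 thus had eNOS-deficient 15 and 19 above wild type 2 and 3, whereas for Mylpf wild type 2 lay above both.

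The fast troponins make the thin filament respond to calcium. Tnnt3, the fast tropomyosin-binding subunit, stood at 12.37, 11.17 and 11.31 (eNOS-deficient) and 10.82, 10.18 and 12.20 (wild type). Tnni2, the fast inhibitory subunit, stood at 11.21, 9.47 and 9.41 (eNOS-deficient) and 9.73, 8.92 and 10.68 (wild type), and Tnnc2, the fast calcium-binding subunit, at 11.34, 9.94 and 9.94 (eNOS-deficient) and 10.06, 9.27 and 10.76 (wild type). eNOS-deficient 11 and wild type 5 were on top for all 3 subunits, but the genotype differences of Tnni2 (0.25) and Tnnc2 (0.38) turned to -0.34 and -0.09 without eNOS-deficient 11, and to -0.17 and -0.0042 without wild type 3.

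Among the other fast genes, Actn3, the alpha-actinin of fast Z-discs, stood at 10.53, 8.99 and 8.66 (eNOS-deficient) and 8.58, 7.30 and 9.61 (wild type). Mybpc2, the fast myosin-binding protein C, stood at 10.73, 8.91 and 8.70 (eNOS-deficient) and 8.19, 7.40 and 9.94 (wild type). Myoz1, a calcineurin-binding Z-disc protein of fast fibres, stood at 10.59, 8.49 and 8.35 (eNOS-deficient) and 7.76, 6.93 and 9.69 (wild type) and spanned 3.66 log2. These 3 were, with Myh8, Myh4 and Ampd1, the 6 genes of the set with the widest spans. Of the calcium-handling genes of fast fibres, Atp2a1, the pump that returns calcium to the sarcoplasmic reticulum, ran from 10.71 to 12.76. Casq1, which stores calcium there, ran from 8.19 to 11.07. Pvalb, the cytosolic calcium buffer parvalbumin, ran from 8.58 to 11.45. For all 3 the lowest value was on wild type 3 and the highest on eNOS-deficient 11.

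The 7 slow fibre genes showed smaller genotype differences, with 5 above 0 and a median of 0.11 log2, and none had an unadjusted p under 0.05 in limma. That median was -0.16 without eNOS-deficient 11, -0.02 without wild type 2, -0.02 without wild type 3, 0.33 without eNOS-deficient 19 and 0.45 without wild type 5, so its sign depended on which array was left out. Both slow genes below 0, Myl3 and Tnnc1, were among the 4 that the heart also uses, whose median was -0.06. The 3 that the adult heart makes little of were all above 0 (Tnnt1 0.10, Tnni1 0.11 and Mybpc1 0.52). Myh7, the slow myosin heavy chain that the ventricle also uses, stood at 8.76, 7.95 and 7.78 (eNOS-deficient) and 7.71, 7.72 and 8.65 (wild type) and had a 2.07-fold range. Myl3, the alkali light chain of slow fibres and ventricle, stood at 8.54, 7.08 and 7.06 (eNOS-deficient) and 7.32, 7.15 and 9.24 (wild type). Unlike most of the set, Myl3 was highest on wild type 5, by 0.70 log2 over eNOS-deficient 11, and its genotype difference was -0.34 (standard error 0.622), or 0.32 without wild type 5.

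Tnnc1, the calcium-binding troponin of slow fibres and heart, stood at 8.85, 7.79 and 7.31 (eNOS-deficient) and 8.16, 7.74 and 8.82 (wild type), with a difference of -0.26. Myoz2, the Z-disc partner of Myoz1 in slow fibres and heart, stood at 10.34, 8.96 and 9.23 (eNOS-deficient) and 8.72, 8.59 and 9.84 (wild type). Tnnt1 and Tnni1 are the slow skeletal troponins T and I, which the adult heart makes little of. Tnnt1 stood at 7.32, 6.62 and 6.27 (eNOS-deficient) and 6.64, 6.26 and 7.03 (wild type), and Tnni1 at 7.86, 7.34 and 6.87 (eNOS-deficient) and 6.80, 7.01 and 7.92 (wild type). Mybpc1, the slow myosin-binding protein C, stood at 10.62, 9.32 and 9.35 (eNOS-deficient) and 8.63, 8.67 and 10.43 (wild type). The same pair of arrays was thus on top for the slow genes, and wild type 5 came closer to eNOS-deficient 11 than it did for the fast genes: the median gap between them was 0.11 log2 over the slow and 0.58 over the fast genes, against 0.10 over all genes tested.

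Fast and slow genes were set against each other on every array, each gene relative to its own mean over the 6 arrays. The fast genes deviated by 1.37, -0.15 and -0.27 on the eNOS-deficient arrays and by -0.43, -1.23 and 0.71 on the wild-type arrays. For the slow genes these values were 0.80, -0.24 and -0.41, and then -0.39, -0.51 and 0.74. Fast minus slow was therefore 0.57, 0.09 and 0.14 in eNOS-deficient aorta and -0.04, -0.72 and -0.03 in wild type, without overlap of the groups but with SDs of 0.27 and 0.39 (n = 3 each) and a difference of 0.53. The gap between the median genotype differences of the fast and the slow genes was 0.48 log2, or 0.25 without wild type 3. The extremes were eNOS-deficient 11 and wild type 3, which had the most and the least muscle signal, while wild type 5, second in muscle signal, lay near 0. Against only Tnnt1, Tnni1 and Mybpc1, the 3 slow genes that the adult heart makes little of, the groups did overlap. These 3 deviated on average by 0.77, -0.07 and -0.34 (eNOS-deficient) and -0.47, -0.52 and 0.63 (wild type). The fast genes thus lay below them on eNOS-deficient 15 and above them on wild type 2 and 5. No test was made of either contrast, since the members were chosen with results of these data known.

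Within 8 pairs of related genes the fast member had the larger genotype difference in all 8 and the wider span in 7. All pairs were read on the same arrays, so these counts are not independent observations. The order of Tnni2 and Tnni1 depended on single arrays. Without eNOS-deficient 11 their differences were -0.34 and -0.14, and without wild type 3 they were -0.17 and -0.0049. With eNOS-deficient 11 and wild type 5 both left out they were 0.11 and 0.20. The exception in span was Myl1 (1.43 log2) against Myl3 (2.17). Myh4 spanned 19.3-fold and Myh7 2.07-fold, Tnni2 4.89-fold and Tnni1 2.17-fold, and Myoz1 12.6-fold and Myoz2 3.36-fold. Actn3 spanned 9.4-fold and Actn2, the alpha-actinin that all fibres and the heart carry, 4.88-fold. The median signal was 9.85 for the fast and 8.09 for the slow genes, and the part of signal level in the narrower spans of the slow genes was not tested beyond the correlation over 44 genes given above.

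**Figure D3:**
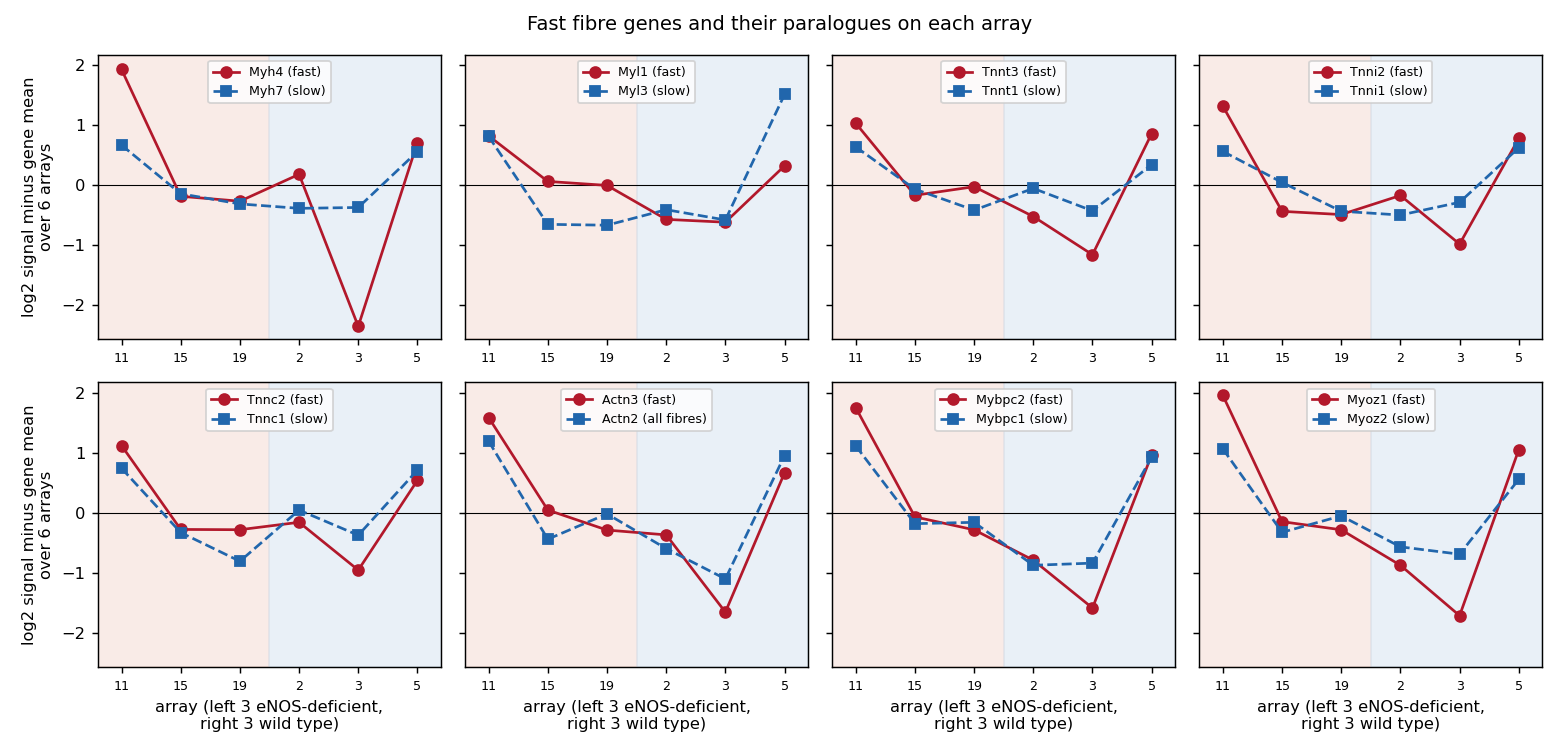
Each panel sets a fast fibre gene (red circles) against its paralogue (blue squares) as log2 signal minus the gene's mean over the 6 arrays; the left 3 arrays are eNOS-deficient 11, 15 and 19 and the right 3 wild type 2, 3 and 5. The fast gene has the wider span in 7 of 8 panels, most of all Myh4 with 4.27 log2 against 1.05 for Myh7.

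The promoters of the 3 myosin heavy chain genes with the most and the least array-to-array span are shown because Myh4 and Myh7 mark the ends among the adult isoforms and Myh8 broke the pattern. They are the 250 bases before the annotated start, from RefSeq (GRCm38.p6), and capitals mark matches to the motifs searched on both strands. Myh4 lies at chr11:67237562-67237811 on the plus strand, the first of 2 Myh7 windows at chr14:54994627-54994876 on the minus strand, and Myh8 at chr11:67276874-67277123 on the plus strand.
Myh4: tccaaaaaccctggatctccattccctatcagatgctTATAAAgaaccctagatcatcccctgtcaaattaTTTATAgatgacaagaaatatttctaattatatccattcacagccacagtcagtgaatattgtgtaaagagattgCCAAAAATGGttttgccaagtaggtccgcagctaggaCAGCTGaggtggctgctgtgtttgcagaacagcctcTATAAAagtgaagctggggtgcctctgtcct
Myh7: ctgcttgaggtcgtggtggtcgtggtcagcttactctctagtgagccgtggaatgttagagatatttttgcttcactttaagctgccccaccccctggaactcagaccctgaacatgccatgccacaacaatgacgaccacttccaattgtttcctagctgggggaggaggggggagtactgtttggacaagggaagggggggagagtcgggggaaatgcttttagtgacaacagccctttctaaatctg
Myh8: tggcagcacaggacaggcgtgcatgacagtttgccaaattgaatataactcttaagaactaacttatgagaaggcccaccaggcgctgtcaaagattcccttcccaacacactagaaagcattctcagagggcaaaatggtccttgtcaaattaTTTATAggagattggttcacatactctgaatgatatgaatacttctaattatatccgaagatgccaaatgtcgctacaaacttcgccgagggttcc
In the Myh4 window capitals mark TATAAA, read on either strand, CAGCTG, and the CArG box; in the Myh8 window they mark TATAAA read on the opposite strand; in the Myh7 window none of the letters searched occurred. RefSeq windows were matched for 34 of the 45 genes (38 windows, as a few genes have 2). The MEF2 site can overlap TATAAA, and a window with both counted for each. CAGCTG, a form of the E-box, occurred in 15 of these 34 genes, or 42.1% of their windows, against 13% of all 32851 windows. The CArG box, the site of serum response factor, occurred in 5 of the 38 windows, or 13.2% against 1.47%. TATAAA occurred in 7, or 18.4% against 12.4%. The MEF2 site was searched in a strict form, which occurred in 2 windows (Myoz2 and Ttn), or 5.26% against 0.508%. Looser forms of the MEF2 site were not counted or marked, also around the TATAAA matches of Myh4 and Myh8. The MEF2 count therefore does not show that the other windows lack such a site. A match is a description of letters, not a bound site.

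The 9 genes of the thin filament, Z-disc and M-band had 8 differences above 0 and a median of 0.49 log2, and none had an unadjusted p under 0.05 in limma. Acta1, the skeletal alpha-actin, stood at 12.69, 11.67 and 11.63 (eNOS-deficient) and 11.57, 10.96 and 12.34 (wild type), with a difference of 0.37 (standard error 0.405). Ttn, the giant spring titin that spans the sarcomere, stood at 12.25, 10.97 and 11.11 (eNOS-deficient) and 10.84, 10.17 and 12.07 (wild type). Neb, nebulin, which runs along the thin filament, stood at 12.13, 10.75 and 10.95 (eNOS-deficient) and 10.41, 9.93 and 11.92 (wild type). All 3 had the same 2 arrays on top and wild type 3 at the bottom. Actn2 stood at 11.16, 9.53 and 9.95 (eNOS-deficient) and 9.37, 8.87 and 10.92 (wild type). Myot (myotilin) and Ldb3 (a PDZ and LIM protein, also called ZASP), both of the Z-disc, differed by 0.63 and 0.58, and Tcap, the titin cap, by -0.15. Myom2, an M-band protein of fast fibres and heart, was highest on wild type 5 (8.87, with 8.83 on eNOS-deficient 11) and differed by 0.25. The differences of Tcap and Myom2 changed sign when single arrays were left out, and that of Ttn did so without wild type 3 (-0.01).

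The 6 genes of excitation-contraction coupling all had a difference above 0, with a median of 0.50 log2, and none had an unadjusted p under 0.05 in limma. Ryr1, the calcium release channel of the sarcoplasmic reticulum, stood at 11.10, 9.36 and 9.44 (eNOS-deficient) and 8.99, 8.33 and 10.43 (wild type), with a difference of 0.71 (standard error 0.631), and a second, dimmer probe set of Ryr1 gave -0.02. Cacna1s, the voltage-sensing calcium channel that opens it, stood at 10.29, 8.55 and 8.74 (eNOS-deficient) and 8.16, 7.56 and 9.25 (wild type), with a difference of 0.87 (standard error 0.559). Both had eNOS-deficient 11 and wild type 5 on top and wild type 3 lowest. Trdn (triadin) and Jph1 (junctophilin 1), which hold the junction between surface membrane and reticulum together, differed by 0.48 and 0.47, and Sypl2 (mitsugumin 29), also of that junction, by 0.37. Mrln encodes myoregulin, a micropeptide that inhibits the calcium pump, and stood at 7.60, 5.66 and 5.65 (eNOS-deficient) and 5.55, 5.63 and 6.19 (wild type). Only eNOS-deficient 11 lay clearly apart for Mrln, and without that array the differences of Mrln, Trdn and Sypl2 were -0.13, -0.10 and -0.06.

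The 5 genes of energy metabolism had differences from 0.50 to 1.02 log2 with a median of 0.74, and none had an unadjusted p under 0.05 in limma. Ckm, the muscle creatine kinase that regenerates ATP, stood at 12.04, 10.62 and 10.50 (eNOS-deficient) and 10.51, 9.56 and 11.58 (wild type), and its second, dimmer probe set gave 0.45 beside 0.50. Ampd1, the muscle AMP deaminase, stood at 10.52, 8.78 and 8.55 (eNOS-deficient) and 7.93, 7.33 and 9.54 (wild type), with a difference of 1.02 (standard error 0.679, limma adjusted p = 0.606). Pygm, the glycogen phosphorylase of muscle, differed by 0.77, and the glycolytic enzymes Eno3 and Pgam2 by 0.66 and 0.74. All 5 were highest on eNOS-deficient 11 and lowest on wild type 3.

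Wild type 5 came close to eNOS-deficient 11 for some genes and not for others. The gap between them was over 1 log2 for 8 genes, namely Lrrc30 (1.63), Asb15 (1.496), Mrln (1.41), Pvalb (1.32), Fsd2 (1.31), Myh4 (1.21), Pgam2 (1.05) and Cacna1s (1.04). It lay between -0.25 and 0.25 log2 for 12 genes, among them Ttn (0.17), Neb (0.21), Ldb3 (0.07) and Tnnc1 (0.03). Fsd2, a fibronectin and SPRY domain gene of striated muscle, stood at 9.53, 8.16 and 8.06 (eNOS-deficient) and 8.12, 7.88 and 8.22 (wild type). For Fsd2 wild type 5 lay close to eNOS-deficient 15 and wild type 2, while eNOS-deficient 11 stood over 1 log2 above every other array. These are values of 1 array each, and no test was made.

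Myh8, which is used mainly around birth and later in a few specialised muscles, did not follow the order of arrays seen in the other genes. Its signal was 4.75, 4.40 and 4.05 in eNOS-deficient aorta and 6.47, 4.99 and 10.22 in wild type, a difference of -2.82 log2 (standard error 1.17, unadjusted p = 0.0447, limma adjusted p = 0.421). Wild type 5 was the high array, wild type 2 came next, and eNOS-deficient 11, the top array for 41 other genes, was at 4.75. Without wild type 5 the difference of Myh8 was -1.33. A second probe set of Myh8, dimmer on average, gave 5.49, 5.06 and 5.13 and then 5.08, 4.74 and 6.05, a difference of -0.06. Both probe sets had wild type 5 as the highest array but gave different sizes. The second was higher on every eNOS-deficient array, and the first on every wild-type array. The rule of the brightest mean thus chose the first through the group where it is high, and its p and span rest on that choice. The order of the 6 arrays in the brighter probe set was that of Krt4, a keratin of squamous epithelium such as that of the oesophagus, which stood at 5.16, 4.76 and 4.41 (eNOS-deficient) and 9.64, 6.18 and 13.33 (wild type). Of the other genes of striated muscle, Csrp3, a muscle LIM protein, stood at 7.16, 6.71 and 6.89 (eNOS-deficient) and 7.01, 6.96 and 9.89 (wild type), and Actc1, the cardiac alpha-actin, at 8.43, 7.23 and 7.93 (eNOS-deficient) and 7.59, 7.31 and 9.74 (wild type). Both were highest on wild type 5 as well; Krt4, Csrp3 and Actc1 were chosen here after their values were seen, and the part of epithelium or its neighbouring muscle in these values was not tested.

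Other genes of skeletal muscle, outside the set of 45, had the same arrays on top in each list mean. The counts for these and the lists that follow stand against 56.6% of all genes tested with a difference above 0 and 11.6% with an unadjusted p under 0.05. Of 30 further sarcomere and cytoskeleton genes, 27 were tested, 0 passed limma's adjusted test in either direction and 0 had an unadjusted p under 0.05, with 25 differences above 0 and a median of 0.39 log2. Of these 27, 22 were highest on eNOS-deficient 11 and 4 on wild type 5. Ankrd23, a titin-associated ankyrin repeat protein, stood at 12.18, 10.87 and 10.77 (eNOS-deficient) and 9.80, 9.60 and 11.50 (wild type), and Sgca, alpha-sarcoglycan of the muscle membrane, and Trim63, a muscle ubiquitin ligase, differed by 0.88 and 0.75. Of 14 further excitation and calcium genes, 0 passed and 0 had an unadjusted p under 0.05, with all 14 differences above 0 (median 0.25). Hjv (hemojuvelin) differed by 1.06, Casq2, the calsequestrin of slow fibres and heart, by 0.78, and the channel subunit Cacnb1 by 0.26. Of 15 further metabolic genes, 0 passed and 1 had an unadjusted p under 0.05, Cox7a1 (0.31 log2, standard error 0.116), a cytochrome oxidase subunit that brown fat also carries; Cox8b and Gys1 came next with 0.23 and 0.24.

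Regulators of muscle identity were mixed. Of 11 stem cell and myogenic factors tested, 0 passed and 0 had an unadjusted p under 0.05 in limma, with 5 differences above 0 and a median of -0.02 log2. Myf6, the myogenic factor that mature fibres keep, stood at 9.84, 8.35 and 8.58 (eNOS-deficient) and 6.77, 7.04 and 9.35 (wild type) and followed the fibre genes. Myf5 and Myog, active in muscle precursors, stood between 4.95 and 5.74 and between 5.48 and 6.13 and did not (differences -0.39 and -0.26). Both were highest on wild type 5, but eNOS-deficient 11 lay below wild type 2 in both. Of the 11 factors, 7 were highest on eNOS-deficient 11 (20.5% of all genes) and 4 on wild type 5 (15.8%). Of 8 neuromuscular junction genes, 0 passed and 0 had an unadjusted p under 0.05 (median 0.08); the acetylcholine receptor subunits Chrna1 and Chrnb1 differed by 0.56 and 0.25 and the receptor-clustering gene Rapsn by 0.44. Chrna1 had eNOS-deficient 11 (6.80) and wild type 5 (6.78) on top.

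Heart muscle genes had the same arrays on top in their mean but a smaller span, and otherwise another order. Their mean over 16 genes was 6.88, 6.15 and 6.23 in eNOS-deficient aorta and 6.55, 6.41 and 6.70 in wild type, and of the 16, 0 passed limma's adjusted test and 1, Ankrd1 (0.76), had an unadjusted p under 0.05 (median -0.13). Myh6, the atrial myosin heavy chain of the adult heart, stood at 6.69, 5.24 and 5.46 (eNOS-deficient) and 6.41, 6.44 and 6.38 (wild type), and Myl7, the atrial light chain, at 6.76, 5.06 and 5.53 (eNOS-deficient) and 6.69, 6.44 and 6.59 (wild type). All 3 wild-type arrays lay above eNOS-deficient 15 and 19 in both genes. The slow fibre genes deviated by -0.24 and -0.41 on eNOS-deficient 15 and 19 and by -0.39 and -0.51 on wild type 2 and 3. Wild type 2 thus lay between eNOS-deficient 15 and 19 for the slow genes.

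Smooth muscle genes of the vessel wall had a median span of 0.89 log2. Their list mean lay between 9.27 and 9.56 in eNOS-deficient and between 9.02 and 9.23 in wild-type aorta, with 12 of 13 differences above 0 (median 0.33), 0 past limma's adjusted test and 3 with an unadjusted p under 0.05, Cnn1 (0.77), Tagln (0.44) and Myocd (0.62). Within that list Des (desmin), Tpm1 and Tpm2 (tropomyosins), which skeletal muscle also carries and which were chosen here after their values were seen, were highest on eNOS-deficient 11 and next on wild type 5: Des reached 11.56 and 11.30 on those arrays and 9.76 to 10.76 on the other 4. Brown fat genes had a mean between 8.81 and 9.01 and between 8.69 and 8.84, with 0 of 9 past limma's adjusted test and 2, Dio2 (0.67) and Ppargc1a (0.49), at an unadjusted p under 0.05 (median 0.09), while Ucp1 differed by 0.09. Squamous epithelium genes had 0 of 22 past limma's adjusted test and 3 lower at an unadjusted p under 0.05, Krt4, Krt13 and Lor (median -0.90). Peripheral nerve genes had 0 of 9 past and 0 at an unadjusted p under 0.05 in limma, with a mean from 6.21 to 6.85 and from 6.44 to 6.51; Pmp22, Egr2 and Mag differed by 0.28, 0.26 and -0.22. Endothelial genes had 0 of 10 past limma's adjusted test and 1 on each side at an unadjusted p under 0.05, Emcn (0.28) and Nos3; Egfl7 differed by -0.58. The 3 Y-linked genes tested, Eif2s3y, Uty and Kdm5d, differed by 3.91, 3.42 and 2.501, and all had an unadjusted p under 0.05 with none past the adjusted test. Epithelium genes were high on wild type 5 and not on eNOS-deficient 11 (8.12 and 5.36), the arrays that led the muscle genes, and the part of other tissue on either array was not tested.

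**Figure D4:**
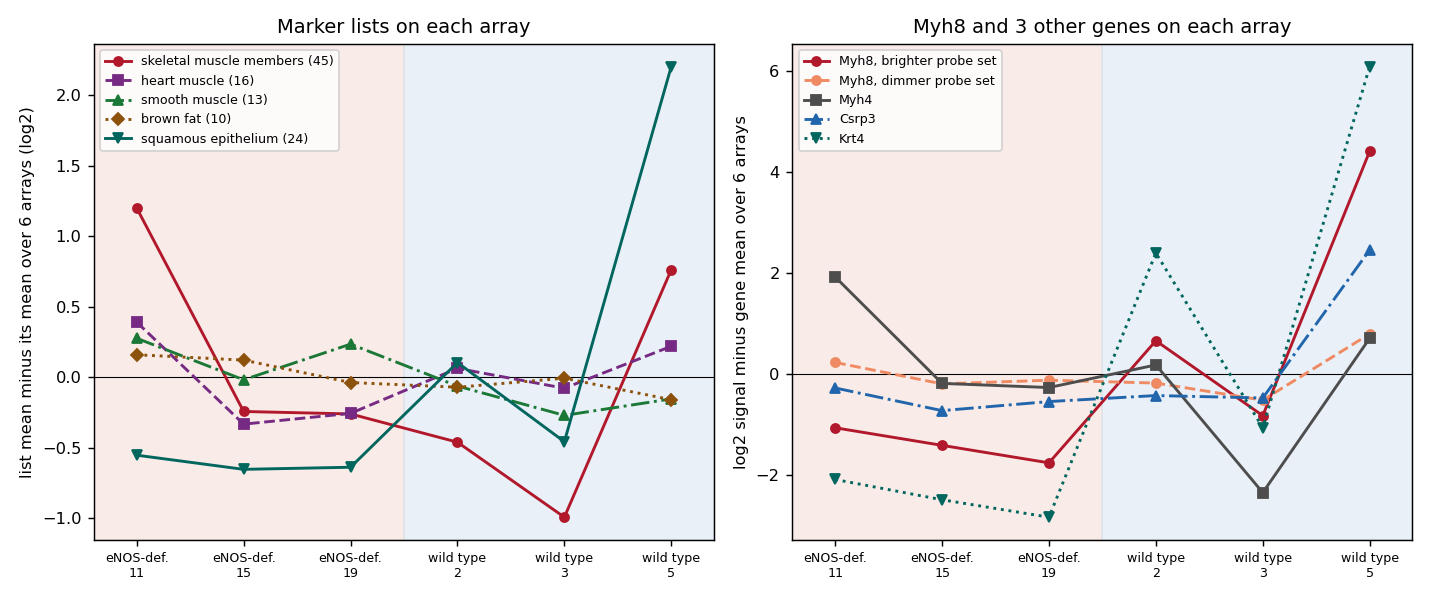
Left, the mean of each marker list (number of genes measured in brackets) minus its own mean over the 6 arrays, in log2; right, log2 signal minus the gene's mean over the 6 arrays for both Myh8 probe sets, Myh4, Csrp3 and Krt4. The skeletal muscle list is high on eNOS-deficient 11 and wild type 5, while squamous epithelium and the brighter Myh8 probe set are high on wild type 5.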

How the data were processed

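Total RNA of 6 mouse aorta samples was hybridised to Affymetrix arrays, and the deposited values are log2 signals made with RMA in Affymetrix Expression Console 1.3.1, per the submitters' processing notes. RMA subtracts background and gives the probe intensities of all arrays 1 distribution before they are combined into probe sets, so a signal is relative to the rest of its array. Medians of the deposited probe set values still ran from 5.55 on eNOS-deficient 11 to 5.68 on wild type 5. For genome build and probe positions: not given in the sources used here. No counts exist for arrays, and precision is limited by 3 arrays a group.

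Of 41345 probe sets, 23525 carried 1 gene symbol, 1810 several and 16010 none in the platform annotation. The brightest probe set stood for each of 22184 genes, and 18008 genes with a mean at or above the 25th percentile (4.38 log2) were tested. Genotypes were compared in limma 3.58.1 (R 4.3.3; lmFit and eBayes on the 6 arrays, no covariate) with Benjamini-Hochberg adjustment over all 18008 genes and a threshold of 0.05, after a check on simulated data. Plots used matplotlib 3.10.9. The alternatives changed the dim filter, variance model, probe set rule, scaling, array weights and arrays left out. The 45 genes and all lists were chosen with earlier results of these data known. Values on every array are given for both genes of each fast and slow pair, for Acta1, Ckm, Ttn, Neb, Ryr1 and Cacna1s, for the 6 widest spans and the 5 smallest p, and, from other lists, up to 3 genes of smallest p are named. Other genes whose array values are given are examples of their role.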

Additional observations from a re-analysis of the deposited data

How the results depend on the processing

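Every alternative without a left-out array kept the direction of all 45 differences, and none had a skeletal muscle gene past the adjusted test. Over all genes, 5 passed as reported, 3 without the dim filter, 2 with the mean of probe sets, 2 with quantile normalization repeated, 119 with array weights and 2 with eNOS-deficient 11 and wild type 5 both left out. With the threshold on unadjusted p instead, 2084 genes passed, 1 of them in the set. With those 2 arrays left out, Mylpf (-0.18) and Tnnt1 (-0.0008) had the opposite sign.

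Leaving out 1 array at a time gave 0 to 6 passing genes, 0 of them in the set, and a median difference of 0.09 to 1.03 for the 45 genes, 0.18 to 1.09 for fast, -0.16 to 0.45 for slow and 0.25 to 0.68 for fast minus slow. The sign of 14 genes depended on the array left out: Mylpf (-0.60 to 0.57), Tnni2 (-0.34 to 0.70), Tnnc2 (-0.0885 to 0.74), Myh7 (-0.16 to 0.45), Myl3 (-0.83 to 0.32), Tnnc1 (-0.69 to 0.0789), Tnnt1 (-0.19 to 0.33), Tnni1 (-0.14 to 0.45), Ttn (-0.0139 to 0.94), Tcap (-0.65 to 0.20), Myom2 (-0.36 to 0.99), Trdn (-0.10 to 1.03), Sypl2 (-0.0581 to 0.63) and Mrln (-0.13 to 0.84). The causes were not tested.

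No paired analysis was possible because the genotypes share no replicate number. With 3 arrays a group and a median standard error of 0.557 log2, differences of the size seen here were not separable from the spread between arrays.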

Other observations

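Among all genes tested, the 100 with the widest span over the 6 arrays held 3 of the 45 skeletal muscle genes (Myh8, Myh4 and Myoz1). They also held 11 genes of the squamous epithelium list, 3 Y-linked genes and 83 genes of no list. Further genes of squamous epithelium and skin stand among the 83, such as Mt4, Asprv1, Krtdap, Lce3e and Rptn, so 11 understates that tissue. The lymphocyte list, added later, was not part of this count, so its genes stand among the 83. The widest were Krt4 (8.92 log2), Krt13 (7.55), Mt4 (7.45), Asprv1 (7.43), Krtdap (6.70), Xist (6.45), Lce3e (6.43), Ighg3 (6.41), Rptn (6.37) and Myh8 (6.17), passing over 1 predicted gene. Of these, Krt4, Krt13, Mt4, Asprv1, Krtdap, Lce3e and Rptn, genes of squamous epithelium and skin, were highest on wild type 5. Ighg3, an immunoglobulin heavy chain, was lowest on eNOS-deficient 11 (5.26), as were the B and T cell genes Ighm, Jchain, Cr2, Ms4a1, Cd3g and Il7r among the 100. Their highest array was not the same: Ighm, Jchain, Cr2, Cd3g and Il7r were highest on eNOS-deficient 19, and Ighg3 and Ms4a1 on wild type 3.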
